A study of Rattus norvegicus with 2 samples.

Results

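Tubulin glutamylation is the addition of glutamate side chains to the tails of tubulin, and 10 genes of this pathway were followed here through the retina of the rat after ischemia-reperfusion (IR) injury. They are the cytosolic carboxypeptidases *Agtpbp1*, *Agbl2*, *Agbl3*, *Agbl4* and *Agbl5*, which remove glutamates (deglutamylases), and the tubulin tyrosine ligase-like enzymes *Ttll1*, *Ttll4*, *Ttll5*, *Ttll6* and *Ttll7*, which add them (glutamate ligases). The genes were picked by symbol from the 32662 genes of the deposited expression table, and the choice drew on their values in the same 2 libraries, so their difference between the libraries is a description and not a test. Each symbol had 1 row. *Agbl5* and *Ttll5* both lie on chromosome 6 of the rat, the others on a chromosome each, and no other gene of the table lay on the listed locus of any of the 10.

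Retinal samples of Long-Evans rats aged 2 months were sequenced, and the study's methods describe the animals as female. The control library (CTRL) came from a retina after a sham procedure, and the other library (IR12) came from a retina exposed to ischemia and taken 12 hours after reperfusion. Each condition had 1 library, so no difference has a replicate check, and a difference between the retinas cannot be told apart from the injury. Ribosomal RNA was removed from both samples, and the labels and the study's methods name a stranded total RNA kit where the series description names an mRNA kit. Expression was given as FPKM, a level per length of transcript and per depth of sequencing that can be set side by side between genes. It does not separate circular from linear RNA of a gene.

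Microtubules of axons, dendrites and cilia carry long glutamate chains, which tune the binding of motors, severing enzymes and associated proteins. In photoreceptors the connecting cilium is strongly glutamylated. Loss of *Agtpbp1* in the Purkinje cell degeneration mouse leads to hyperglutamylated tubulin and to the loss of Purkinje cells and photoreceptors, and variants of *TTLL5* and *AGBL5* are known in inherited retinal dystrophy. *Agtpbp1* was first described as a gene induced in motor neurons after axotomy.

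Differences between the libraries are given as log2 ratios of FPKM plus a pseudocount of 1, IR12 over CTRL, and at least 2-fold means at least 2-fold on that scale. The FPKM values of all genes add up to 1402321 in CTRL and 895199.9 in IR12. When both libraries were rescaled to the same sum (TPM scale), the median log2 ratio of the genes with an FPKM of 1 or more in both was 0.60, against 0.03 as deposited. With small non-coding RNAs left out of the sums, the same median was -0.06, so the shift of the TPM scale was not seen without them. A small difference can change direction with the scale. A gene whose log2 ratio on the TPM scale is positive but under 0.60 still lies below the median on that scale.

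Cell type markers differed between the libraries as well. The markers of rods, the main cell of the rat retina, had the largest summed FPKM of the cell type lists, 15561 in CTRL and 18970.2 in IR12. *Gnat1* (rod transducin) had 4027 and 4237, and of 7 rod markers 0 were at least 2-fold different as deposited, while *Sag* (arrestin) was past 2-fold higher on the TPM scale. In whole tissue, fewer cells of a type and less RNA per cell cannot be told apart. Müller glia, the supporting glia of the retina, had all 5 markers at least 2-fold lower in IR12, and 4 of them on the TPM scale as well. Their summed FPKM was 1043 in CTRL and 201 in IR12, with *Glul* (glutamine synthetase) as the most abundant at 754 and 126. Leukocyte markers went the other way, 6 of 7 being at least 2-fold higher in IR12 and 7 of 7 on the TPM scale, but all except *Lyz2* (lysozyme) reached an FPKM of 1 through IR12 alone and had to be higher there. Their summed FPKM was 11.6 in CTRL and 126 in IR12, with *Lyz2* as the most abundant at 9.73 and 76.9 and *S100a8* listed at 0 in CTRL. All 6 lens markers were at least 2-fold lower in IR12 on both scales. The median log2 ratios as deposited were 0.07 for rods, -2.46 for Müller glia, 1.99 for leukocytes and -2.71 for lens. The Müller glia median is that of *Kcnj10* (a potassium channel), which reached an FPKM of 1 through CTRL alone, and the leukocyte median that of *Itgam* (an integrin), which reached it through IR12 alone. The lens sum was 1763 in CTRL and 204 in IR12, with *Cryaa* (an alpha-crystallin) as the most abundant at 1118 and 124.

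The markers of retinal neurons other than rods were lower in sum in IR12 as deposited. The summed FPKM was 415 in CTRL and 279 in IR12 for cones, led by *Gnat2* (cone transducin), and 489.7 and 357 for bipolar cells, led by *Trpm1* (their light-response channel). For amacrine and horizontal cells, led by *Calb2* (calretinin), the sums were 480.1 and 286, and for ganglion cells, led by *Nefl* (a neurofilament), 312 and 251. *Opn1sw* (a cone opsin) and *Pou4f2* (a ganglion cell transcription factor) were the genes of these lists at least 2-fold lower, and neither was on the TPM scale. On that scale the median log2 ratios of cones, bipolar cells and ganglion cells were above 0, at 0.09, 0.19 and 0.30, and that of amacrine and horizontal cells was -0.16. These medians still lay below the 0.59 of all genes with an FPKM of at least 1 in either library. The pigment epithelium list, led by *Ttr* (transthyretin), summed to 77.3 in CTRL and 96.6 in IR12, a direction that rests on *Ttr* with 61.8 and 87.4. In this list *Rpe65* (visual cycle), with 11.1 and 4.88, was at least 2-fold lower as deposited but not on the TPM scale, where *Ttr* was past 2-fold higher. Of 5 blood markers 2 were matched by symbol, and *Hbb* (beta-globin) had 20.4 in CTRL and 35.1 in IR12, past 2-fold higher on the TPM scale alone, while *Alas2* (heme synthesis) had 0.334 and 0.196.

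**Figure D1:**
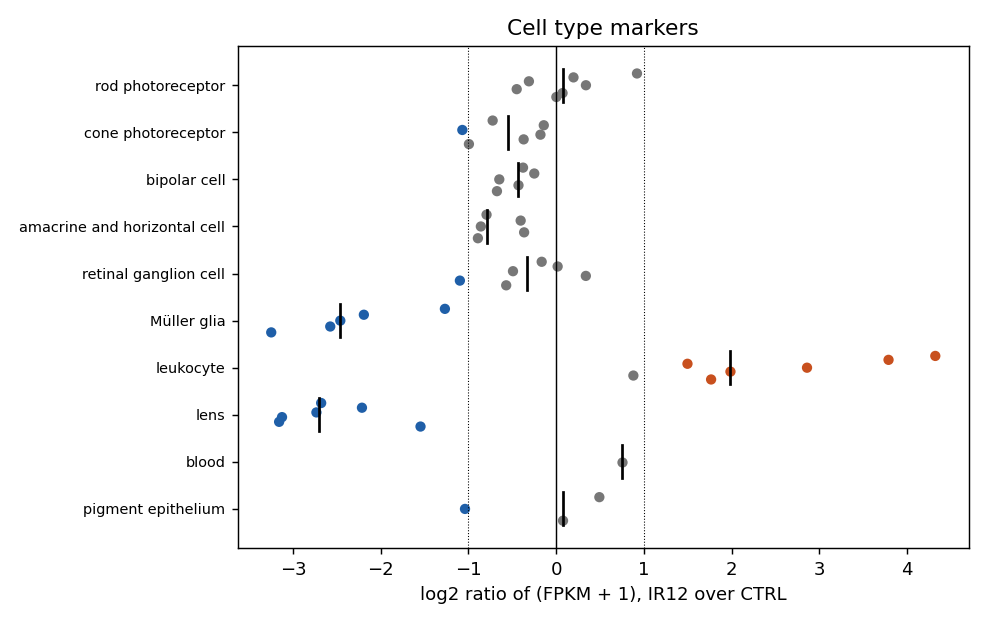
Log2 ratio of (FPKM + 1), IR12 over CTRL, of cell type markers with an FPKM of at least 1 in at least 1 library. Each point is 1 gene, vertical bars are list medians, dotted lines mark a 2-fold difference, and orange and blue points are at least 2-fold higher and lower. As deposited, the 5 Müller glia and 6 lens markers lie left of the lower line and 6 of 7 leukocyte markers right of the upper one, and on the TPM scale these counts are 4, 6 and 7.

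*Agtpbp1* (ENSRNOG00000018651), which shortens glutamate chains, was the member with the highest level and the largest difference. Its FPKM was 187 in CTRL and 641 in IR12. The level was thus 3.43-fold higher in IR12, with a log2 ratio of 1.77. The gene was at least 2-fold higher on each of 5 scales tried, with log2 ratios between 1.67 and 2.42. By level it ranked 457th in CTRL and 114th in IR12 among the 13599 genes with an FPKM of at least 1 in at least 1 library. By log2 ratio it ranked 332nd, and 2.44% of these genes had a ratio as large or larger. Among the 976 genes with an FPKM of at least 100 in CTRL, *Agtpbp1* ranked 2nd by this ratio. That limit was not among the planned settings, and it leaves out genes that were low in CTRL. *Mat2a* (S-adenosylmethionine synthesis), with 157 and 608, ranked 1st and *Impg2* (interphotoreceptor matrix), with 374 and 1223, ranked 3rd, and both were chosen after their values were seen. The other genes with a ratio above that of *Agtpbp1* were thus below 100 FPKM in CTRL. The gene lies on chromosome 17, 5511385 to 5614435 in rn6. The Müller glia, leukocyte and lens markers moved between the same libraries, and their part in this difference was not tested.

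The promoters of *Agtpbp1* and of *Ttll5*, the most abundant ligase, are shown because these genes were the highest of their classes and differed in how far IR12 departed from CTRL. Each is the window from 250 bases before to 50 after an annotated start, taken from RefSeq in the GRCr8 build and not in rn6, and the FPKM values do not say which start was used. The *Agtpbp1* window is chr17:5139003-5139302 and the *Ttll5* window chr6:111213848-111214147, both on the plus strand. They are written 5′ to 3′, and capitals mark the motifs found.
Agtpbp1: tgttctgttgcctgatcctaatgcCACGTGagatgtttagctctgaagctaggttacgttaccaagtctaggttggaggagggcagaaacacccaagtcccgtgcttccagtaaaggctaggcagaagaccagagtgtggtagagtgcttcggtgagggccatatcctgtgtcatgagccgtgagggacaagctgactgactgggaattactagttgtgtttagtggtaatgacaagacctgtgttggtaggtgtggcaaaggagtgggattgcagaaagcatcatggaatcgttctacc
Ttll5: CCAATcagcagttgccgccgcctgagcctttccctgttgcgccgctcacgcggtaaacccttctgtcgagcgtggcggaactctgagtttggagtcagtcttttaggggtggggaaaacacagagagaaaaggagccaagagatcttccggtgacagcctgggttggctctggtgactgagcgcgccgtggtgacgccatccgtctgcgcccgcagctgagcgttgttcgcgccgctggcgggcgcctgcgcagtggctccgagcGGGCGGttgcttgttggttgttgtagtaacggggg
A set of 6 short motifs was searched on both strands, and no match overlapped another in these windows. The *Agtpbp1* window held the E-box CACGTG once, from position -226 to -221 relative to the start, and 6.42% of all 33469 windows held it. The *Ttll5* window held the CCAAT box, spelled by its name, from -250 to -246, as did 37.5% of all windows. It also held the GC box CCGCCC on the other strand from 15 to 20, as did 33.1% of all windows. Neither window held the AP-1 site TGACTCA, which was in 4.63% of all windows, or the TATA box TATAAA, which was in 14.2%. The cAMP response element TGACGTCA, present in 1.83% of all windows, was in neither. The *Agtpbp1* window had a GC content of 49.7% with 6 CG dinucleotides and the *Ttll5* window 62.7% with 28, beside medians of 51.7% and 7 over all windows. A match of letters does not show that a factor binds there.

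The other deglutamylases were far below *Agtpbp1* in both libraries, and none shared its difference. *Agbl5* (ENSRNOG00000008612; chromosome 6, 26838036 to 26855658), which removes the glutamate at the branch point of a chain, stood at 11.6 FPKM in CTRL against 9.59 in IR12. Its log2 ratio was -0.25 as deposited and 0.34 on the TPM scale. *Agbl3*, a deglutamylase of the same family, had 11.2 in CTRL and 8.81 in IR12, with log2 ratios of -0.31 as deposited and 0.27 on the TPM scale. Both genes were therefore slightly lower in IR12 as deposited and slightly higher on the TPM scale, where the median over all 13599 genes was 0.59.

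*Agbl4*, which like *Agtpbp1* shortens glutamate chains, went the other way from it. Its FPKM was 2.03 in CTRL and 0.715 in IR12, so its level was 2.85-fold higher in CTRL. With the pseudocount of 1 this low gene had a log2 ratio of -0.82, short of 2-fold, and with a pseudocount of 0.1 it had -1.39. The ratio was below 0 on each of the 5 scales, and *Agbl4* passed the FPKM minimum of 1 through CTRL alone. *Agbl2*, another family member, had 0.191 in CTRL and 0.239 in IR12 and did not reach the minimum.

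**Figure D2:**
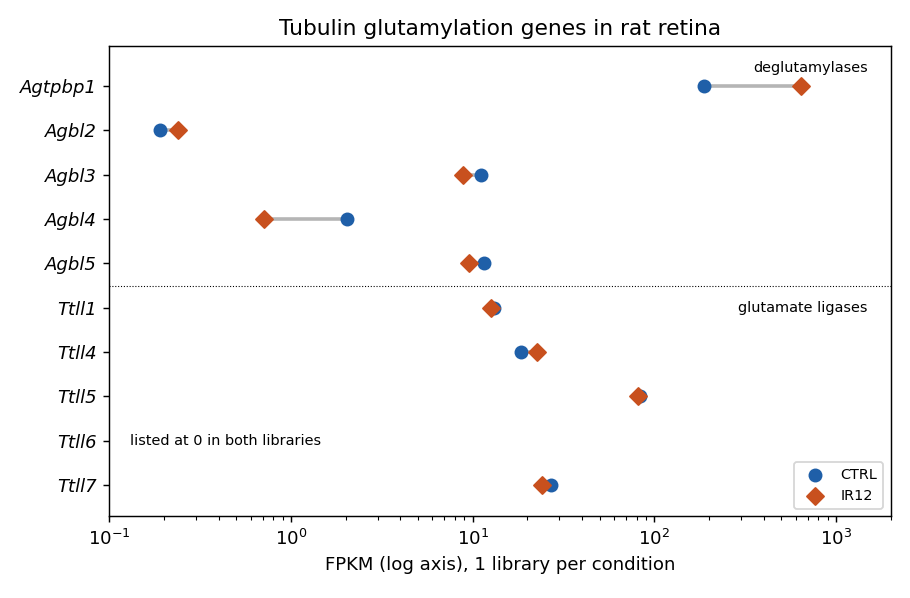
FPKM (log axis) of the 10 genes in CTRL (blue circles) and IR12 (orange diamonds), 1 library each, with a grey line joining the values of a gene. *Agtpbp1* stands at 187 and 641, while the values of *Ttll1* and *Ttll5* nearly coincide as deposited, although both were higher in IR12 on the TPM scale.

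The ligases hardly differed between the libraries as deposited. *Ttll5* (ENSRNOG00000009318; chromosome 6, 109710781 to 109879607), whose promoter is printed above and which starts glutamate chains on alpha-tubulin and also glutamylates the ciliary protein RPGR, stood at 83.9 FPKM in CTRL against 81.6 in IR12. *Ttll7*, which modifies beta-tubulin, had 26.9 and 24.1, and *Ttll1*, the catalytic part of a complex that extends chains, had 13.0 and 12.6. *Ttll4*, which starts chains, was the exception in direction, with 18.4 in CTRL and 22.6 in IR12. The log2 ratios of these genes were -0.04 for *Ttll5*, -0.16 for *Ttll7*, -0.05 for *Ttll1* and 0.28 for *Ttll4*. On the TPM scale they were 0.60, 0.47, 0.55 and 0.89 in this order, so the first 3 changed sign and all 4 lay above 0. The median over all 13599 genes on that scale was 0.59. *Ttll6*, a ligase that extends chains, was listed at 0 in both libraries, and a listed 0 is not proof of silence because *Hdac6*, a tubulin deacetylase that most cells use, was listed at 0 as well.

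An FPKM of 1 in either library was reached by 8 of the 10 members, and *Agbl2* and *Ttll6* did not reach it. Past 2-fold higher in IR12 there was 1 of the 8, *Agtpbp1*, and past 2-fold lower there were 0. The corresponding shares of all 13599 genes were 6.56% higher and 6.12% lower, and nothing is read from the comparison since the members were chosen on these libraries. On the TPM scale the member counts were again 1 and 0, beside 20.7% and 3.21% of all genes. With a pseudocount of 0.1 they were 1 and, through *Agbl4*, 1, beside 8.59% and 8.65%.

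The order of the members by level was the same in both libraries, from *Agtpbp1* through *Ttll5*, *Ttll7*, *Ttll4*, *Ttll1*, *Agbl5*, *Agbl3* and *Agbl4* to *Agbl2*. Without replicates it is not known which neighbours in this order differ beyond their spread.

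**Figure D3:**
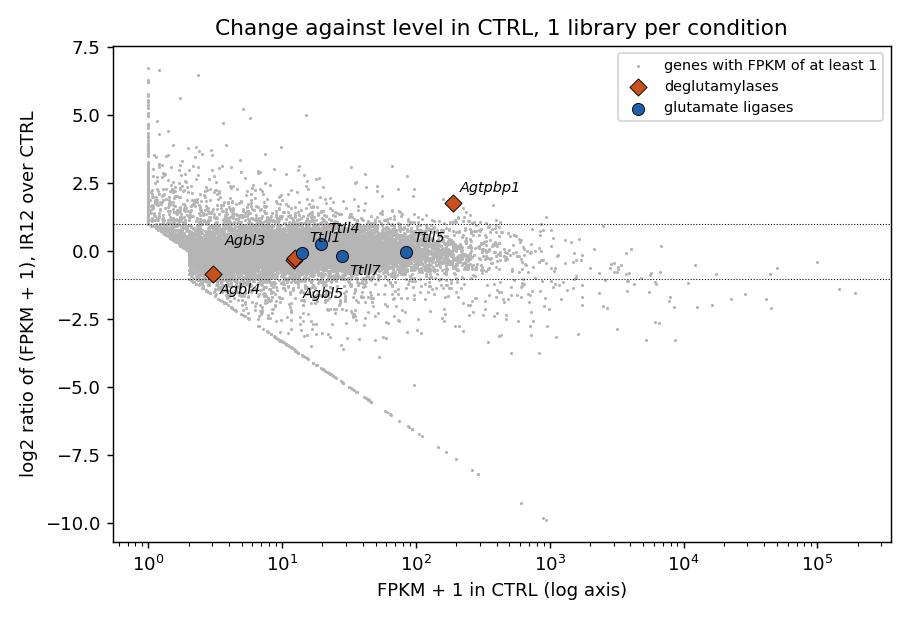
Log2 ratio of (FPKM + 1), IR12 over CTRL, against FPKM + 1 in CTRL (log axis) for the 13599 genes with an FPKM of at least 1 in at least 1 library (grey). The 4 deglutamylases (diamonds) and 4 ligases (circles) among them are marked and dotted lines show a 2-fold difference. *Agtpbp1* is at 1.77 and the other 7 lie between the lines as deposited and on the TPM scale.

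The balance of the classes was compared through ratios of FPKM within a library, which do not change with the scaling of that library. The summed FPKM of the 5 deglutamylases was 212 in CTRL and 661 in IR12, and that of the 5 ligases was 142 and 141. Deglutamylase over ligase FPKM was therefore 1.49 in CTRL and 4.69 in IR12, which is 3.14-fold higher in IR12. This difference rested on 1 gene. Without *Agtpbp1* the same ratio was 0.176 in CTRL and 0.137 in IR12, or 0.782 times the CTRL value. *Agtpbp1* made up 88.2% of the deglutamylase sum in CTRL and 97.1% in IR12, and *Ttll5* made up 59.0% and 57.9% of the ligase sum.

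The pairs of single genes give the same values gene by gene. *Agtpbp1* over *Ttll5* was 2.23 in CTRL and 7.86 in IR12, and *Agtpbp1* over *Ttll7* was 6.95 and 26.6. Against the 4 ligases above 0, the ratio of *Agtpbp1* to the ligase was between 2.79-fold and 3.83-fold higher in IR12. For *Agbl3* and *Agbl5*, the ratios to these ligases were lower in IR12, between 0.641 and 0.927 times their value in CTRL. Those of *Agbl4* were between 0.286 and 0.393 times, but *Agbl4* passed the FPKM minimum through CTRL alone and so had to be lower in IR12. These 12 ratios reuse the same few genes and are not separate results. The 4 ratios of *Agbl2* were between 1.02 and 1.40 times their CTRL value, from levels under 1 FPKM.

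As a class, the deglutamylases had a median log2 ratio of -0.28 and a mean of 0.10 over the 4 genes that reached the minimum, 1 of them through CTRL alone. The opposite signs come from *Agtpbp1*, the 1 deglutamylase of the 4 above 0. The 4 ligases had a median of -0.04 and a mean of 0.01. The median over all 13599 genes was 0.02 as deposited and 0.59 on the TPM scale, where the class medians were 0.31 and 0.58.

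**Figure D4:**
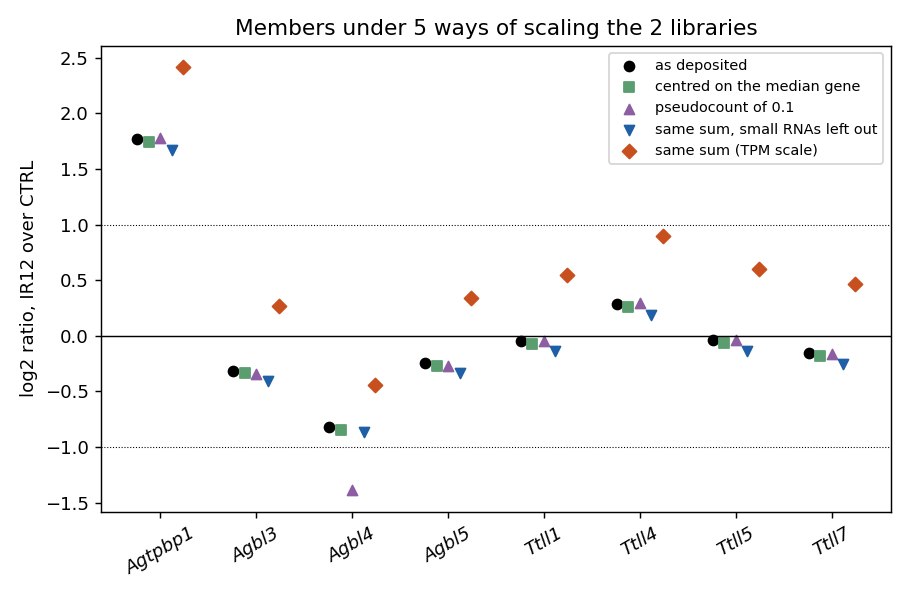
Log2 ratio, IR12 over CTRL, of the 8 members with an FPKM of at least 1 in at least 1 library under 5 ways of scaling (symbols), with dotted lines at a 2-fold difference. *Agtpbp1* stays above the upper line on all 5, *Agbl4* below 0 on all 5, and *Agbl3*, *Agbl5*, *Ttll1*, *Ttll5* and *Ttll7* are above 0 on the TPM scale alone.

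Both families hold further genes. Of 9 such genes, 4 reached an FPKM of 1, and 1 of these, *Ttll12*, was at least 2-fold higher in IR12, with 5.46 in CTRL and 13.1 in IR12. *Ttll12* is a divergent family member whose activity is not settled. *Ttll11*, which extends chains, had 4.10 and 2.71, and its log2 ratio was -0.46 as deposited and 0.04 on the TPM scale. The glycine ligases *Ttll3*, *Ttll8* and *Ttll10*, which compete for the same tubulin tails, had at most 1.03 FPKM, and *Ttll10* was listed at 0 in both libraries. *Agbl1*, a further deglutamylase, had 0.756 in CTRL and 0.258 in IR12.

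None of the 6 partner genes of the ligases that reached the minimum was 2-fold higher or lower on either scale. *Lrrc49*, a subunit of the TTLL1 complex, was the most abundant with 83.8 in CTRL and 66.2 in IR12. The subunits *Nicn1* and *Tpgs2* had 33.8 and 25.4 in CTRL and 30.2 and 31.6 in IR12. *Lrrc49* and *Nicn1* were lower in IR12 as deposited and higher on the TPM scale. *Rpgr*, the ciliary substrate of TTLL5, had 14.8 and 10.1, with a log2 ratio of -0.51 as deposited and above 0 on the TPM scale. *Cep41*, which brings TTLL6 to cilia, had 19.6 and 23.6. The subunit *Tpgs1* stayed under 1 FPKM, and *Cstpp1* was not matched by symbol.

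Other tubulin modifications were compared through the same fixed lists. Of the detyrosination genes, *Vash1*, a carboxypeptidase that removes the last tyrosine, had 4.20 in CTRL and 6.99 in IR12, while *Vash2*, of the same activity, had 3.03 and 1.67 and their partner *Svbp* 6.27 and 3.98. *Ttl*, which puts the tyrosine back, had 3.93 and 5.51. The tubulin acetyltransferase *Atat1* had 28.7 and 21.9, lower in IR12 as deposited and higher on the TPM scale. The deacetylase *Sirt2* had 44.4 and 44.9. The sign of its small difference turned when ratios were centred on the median gene and when small non-coding RNAs were left out. None of these 6 genes was 2-fold higher or lower as deposited, and *Vash1* was past 2-fold on the TPM scale.

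The tubulins, which are the substrates, were higher in sum in IR12. The 8 alpha-tubulins summed to 351 FPKM in CTRL and 428 in IR12, and the 8 beta-tubulins to 287 and 410. *Tuba1a*, the most abundant alpha-tubulin in CTRL, had 160 and 156, with a log2 ratio of -0.04 as deposited and above 0 on the TPM scale. *Tubb5*, the most abundant beta-tubulin, had 169 and 250.1. Those at least 2-fold higher were *Tubb6* with 3.23 and 13.7, *Tubb4b* (a ciliary beta-tubulin) with 33.4 and 76.7, and *Tuba1c* with 0.0488 and 1.80, which reached the minimum through IR12 alone. On the TPM scale *Tuba4a*, *Tubb5* and *Tubb2b* were past 2-fold higher as well. No tubulin was at least 2-fold lower on either scale, and *Tubb4a* came nearest with 15.8 in CTRL and 8.02 in IR12. Tubulin genes are close in sequence, so reads shared between them may be divided uncertainly. The FPKM of *Agtpbp1* equalled 29.3% of the summed FPKM of the 16 tubulins in CTRL and 76.5% in IR12.

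Severing enzymes, associated proteins and kinesins read glutamylated microtubules. Of 6 severing enzymes that reached the minimum, none was 2-fold higher or lower as deposited, and 1 was past 2-fold higher on the TPM scale. *Spast* (spastin), whose severing is promoted by glutamate chains, had 41.9 in CTRL and 30.03 in IR12, and its log2 ratio of -0.47 was above 0 on the TPM scale. Of 10 associated proteins and kinesins that reached the minimum, none was 2-fold higher or lower as deposited, and *Map1b* was past 2-fold higher on the TPM scale. *Map1b*, which stabilises growing axons, had 226 and 343, *Map2* of dendrites 247 and 218, and *Mapt* (tau) 47.6 and 29.1, and of these *Map2* alone changed sign on the TPM scale.

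Among the 8 pathway lists beside the members, the median log2 ratio as deposited was 0.56 for beta-tubulins and 0.31 for alpha-tubulins, farthest above the 0.02 of all genes. Severing enzymes had a median of 0.14 and the remaining genes of the ligase and carboxypeptidase families 0.01. Of these 8 lists, those with a median below 0 were acetylation at -0.18, associated proteins and kinesins at -0.15, ligase partners at -0.11 and detyrosination at -0.07. On the TPM scale all 4 lay above 0, between 0.45 and 0.49, but below the 0.59 of all genes on that scale. With 2 to 10 genes a list, these medians rest on few values.

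**Figure D5:**
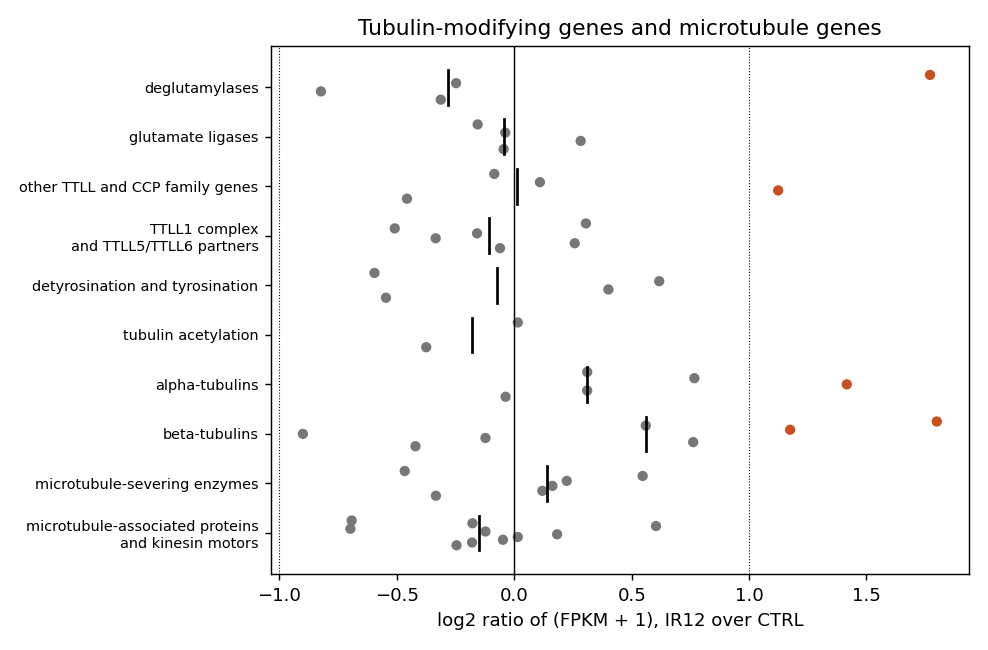
Log2 ratio of (FPKM + 1), IR12 over CTRL, of the genes of 10 lists with an FPKM of at least 1 in at least 1 library. Each point is 1 gene, vertical bars are list medians, and dotted lines mark a 2-fold difference as deposited. *Agtpbp1*, *Ttll12*, *Tuba1c*, *Tubb4b* and *Tubb6* are the 5 points past the upper line, and no point is past the lower line, while on the TPM scale 6 more are past the upper one.

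The FPKM values give no read counts, but their lowest repeated values move in steps that can be compared. At each of 5 lengths that recur among listed loci, the step in CTRL was 1.71 times that in IR12 in 4 cases and 3.42 times in the other. At the shortest of them, 909 bases, the step was 0.0919 FPKM in CTRL and 0.0538 in IR12. That a step is 1 read was not tested, and the ratio of steps is not a ratio of reads sequenced. If a step is 1 read and the transcript is no shorter than 909 bases, *Agtpbp1* rests on at least 2037 reads in CTRL and 11922 in IR12. On the same reading *Ttll5* rests on at least 912 and 1517 reads, *Agbl4* on 22 and 13, and *Agbl2* on 2 and 4. The bounds of *Agbl2* and *Agbl4* were the lowest of the 9 members above 0, but no transcript length was used, so they do not order the members by reads. These numbers cover counting error only and not the variation between samples.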

How the data were processed

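Retinal RNA was sequenced in 1 library after a sham procedure (CTRL) and 1 library at 12 hours after reperfusion (IR12). Samples were grouped by their titles. The authors deposited gene-level FPKM, 1 column per library, for 32662 genes. The submitters' processing notes name STAR 2.5.2b, Cuffdiff 2.2.0 and rn6, and the study's methods state that reads were shortened. Which tool made the FPKM values and how they were scaled is not given in the sources used here. Small non-coding RNAs, recognised by symbol, hold 68.1% of the summed FPKM in CTRL and 46.4% in IR12. Starts of loci were counted from 0 in the table and are printed with 1 added.

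Differences were computed as log2 ratios with a pseudocount of 1, which shrinks the ratio of a gene near 0. Counts took in each gene that reached an FPKM of 1 in either library, and 2-fold was the limit for a difference. With 1 library per group no p-value was computed, and lists are described by counts and medians. Named are the 10 members and genes of the fixed lists, with *Mat2a* and *Impg2* added after their values were seen. The limit of 100 FPKM in CTRL used to rank *Agtpbp1* was not among the planned settings. Some genes of the lists are not reported here. The members and lists were chosen with earlier results of these data known. The alternatives were a pseudocount of 0.1, a minimum FPKM of 5 or none, centring on the median gene, rescaling to the same sum (TPM scale), means in place of medians, sums without the most abundant gene of a class and, chosen after seeing the data, rescaling without small non-coding RNAs. Motifs were searched in RefSeq promoter windows (GRCr8), and 9 of the 10 members matched by symbol. The calculation of ratios and counts was tested on simulated data. Python 3.11.15, numpy 2.4.6, pandas 2.3.3 and matplotlib 3.10.9 were used.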

Additional observations from a re-analysis of the deposited data

How the results depend on the processing

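No paired analysis was possible because each condition has 1 library, and for the same reason no replicate was left out. Of 40 alternative values for 8 summary results, 33 stayed within 0.1 on the log2 scale or, for counts and the ratio of sums, within 1.5 times. Some of these 33 could not have moved, so the tally overstates how stable the results are. Genes under 1 FPKM in both libraries cannot reach 2-fold with a pseudocount of 1. Dropping the minimum therefore had to leave 892 higher and 832 lower genes. Centring shifts both classes alike and had to leave the difference of their medians at -0.24. Every ligase that reached the minimum also passed 5 FPKM, so that limit had to leave the ligase median at -0.04. The ratio of summed deglutamylase to ligase FPKM, IR12 over CTRL, reversed from 3.14 to 0.782 without *Agtpbp1*, since that gene holds most of the deglutamylase sum, and was 3.07 without *Ttll5*. The TPM scale, which lifts the median of all genes, gave class medians of 0.31 for deglutamylases and 0.58 for ligases in place of -0.28 and -0.04. On it 2817 genes were at least 2-fold higher and 436 lower, in place of 892 and 832, but with small non-coding RNAs left out of the rescaling, an alternative chosen after seeing the data, the numbers were 787 and 939. The difference of the class medians, deglutamylases minus ligases, was -0.24 and became 0.086 with means, which *Agtpbp1* moves. With a pseudocount of 0.1 the number of lower members went from 0 to 1 (*Agbl4*). Of 32 alternative log2 ratios of single members, 10 moved by more than 0.1, 8 of them on the TPM scale. *Agtpbp1* was the 1 member at least 2-fold higher under every alternative run. The depth behind members under 1 FPKM is not known, and without replicates no value has an error between samples.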
